A study of Mus musculus with 2 samples.

Results

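The genes described here encode the respiratory chain and ATP synthase, the protein machines of the inner mitochondrial membrane. A row of the deposited table was taken as a member when its symbol began with Nduf, Uqcr, Atp5, or Cox and a digit, was *Sdha*, *Sdhb*, *Sdhc*, *Sdhd*, *Cyc1* or *Cycs*, or named a protein-coding gene of mitochondrial DNA. This rule used names and no measured value, although it was set with earlier results of these data known. It found 125 of the 19829 genes listed. Mitochondrial DNA encodes 13 of them and nuclear DNA encodes 112. The nuclear members were 86 structural subunits, 17 assembly factors, which help to build a complex but are not part of it, the electron carrier cytochrome c (*Cycs*) and 8 pseudogenes.

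RNA from kidney was sequenced in 1 library per group, and how many mice stood behind a library was not given in the sources used here. Per the study's methods, the mice were C57BL/6 males of 14 weeks that had received the calcineurin inhibitor voclosporin at 30 mg/kg per day from 8 to 10 weeks of age and then 30 min of ischemia of both kidneys followed by reperfusion, which causes acute kidney injury (AKI). The library named WT+AKI came from wild-type mice. The library named TG+AKI came from mice carrying an *Inmt* transgene that is overexpressed in the proximal tubule only, while the RNA came from the whole organ. Drug and injury were common to both groups, and no kidney without them was compared. The labels state no treatment for either sample although the series design names voclosporin, the transgenic sample is also titled a conditional knockout, and the study's text is not uniform on the length of drug treatment and on the hours between injury and sampling. The value of *Inmt*, the transgene, was 10.4 in WT+AKI against 402.8 in TG+AKI, a direction that follows the transgenic label.

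Complex I takes electrons from NADH and complex II takes them from succinate, and both pass them to coenzyme Q. Complex III hands them to cytochrome c and complex IV hands them to oxygen, while complexes I, III and IV move protons across the membrane and ATP synthase, or complex V, uses their return to make ATP. Complexes I, III, IV and V are mosaics of subunits from both genomes, whereas complex II is wholly nuclear. Proximal tubule cells are rich in mitochondria and rely on oxidative metabolism for reabsorption, and they are among the cells most readily injured by ischemia.

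Values are normalized values as deposited, in which 1 read stood for 0.0236 in the wild-type library (38542764 reads) and for 0.0302 in the transgenic library (36427421 reads). The 10294 genes that reached a value of 10 in either library were compared as a log2 fold change on the log2(value + 1) scale, where low genes appear less different than they were. A gene is said to have risen or fallen when it differed by at least 1.5-fold on that scale. Ratios are values in TG+AKI over values in WT+AKI, and brackets hold their 95% Clopper-Pearson interval. The intervals cover counting error only, and they treat each read as independent. Reads were amplified by PCR and carried no molecular identifiers, so the intervals may be too narrow even for that error. With 1 library per group the spread between mice could not be measured, and no p-value for the difference between genotypes is given.

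Of the 125 members, 111 reached the minimum value. The 14 that did not were the 8 pseudogenes, the assembly factors *Ndufaf8* and *Cox18*, and the tissue isoforms *Cox4i2*, *Cox6a2*, *Cox7a1* and *Ndufa4l2*. *Cox20* and *Ndufaf5* reached it in TG+AKI only and *Cox6b2* in WT+AKI only, which favours their counting as higher and lower. The pseudogenes *Atp5k-ps1* (1 read in WT+AKI, 4 in TG+AKI) and *Atp5k-ps2* (2 reads and 1 read) were at the floor of 3 reads and are given as counts only.

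As deposited, respiratory chain transcripts were higher in TG+AKI almost throughout, and the mitochondrially encoded ones differed most. Of the 111 members, 36 rose at least 1.5-fold, where 14% of all genes compared did. A single member, the complex IV isoform *Cox6b2*, fell by that much, where 14.3% of all genes did. At 2-fold, 4 members had risen, all of them mitochondrial (5.74% of all genes), and *Cox6b2* had fallen (7.12% of all genes). The log2 fold change was above 0 for 107 of the 111 members and for 51.2% of all genes compared. Its median was 0.46 over the members and 0.014 over all genes.

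The direction of the smaller differences depended on how the libraries were scaled, because the 2 columns summed to different totals. Setting the totals equal moved the median of all genes down by 0.26 (log2) and left 86 of the 111 members above 0. Over all genes, 14% were higher and 14.3% lower by at least 1.5-fold as deposited, against 7.98% and 24.8% with equal totals. The split was 9.69% and 19.7% with totals equal outside mitochondrial DNA, and 10.3% and 18.5% with a median ratio of 1 over well-expressed genes. A scaling multiplies a whole column, so the distance of a group's median from that of all genes is fixed by construction apart from the pseudocount. As deposited the distance was 0.89 for the mitochondrial members and 0.39 for the nuclear structural subunits.

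**Figure D1:**
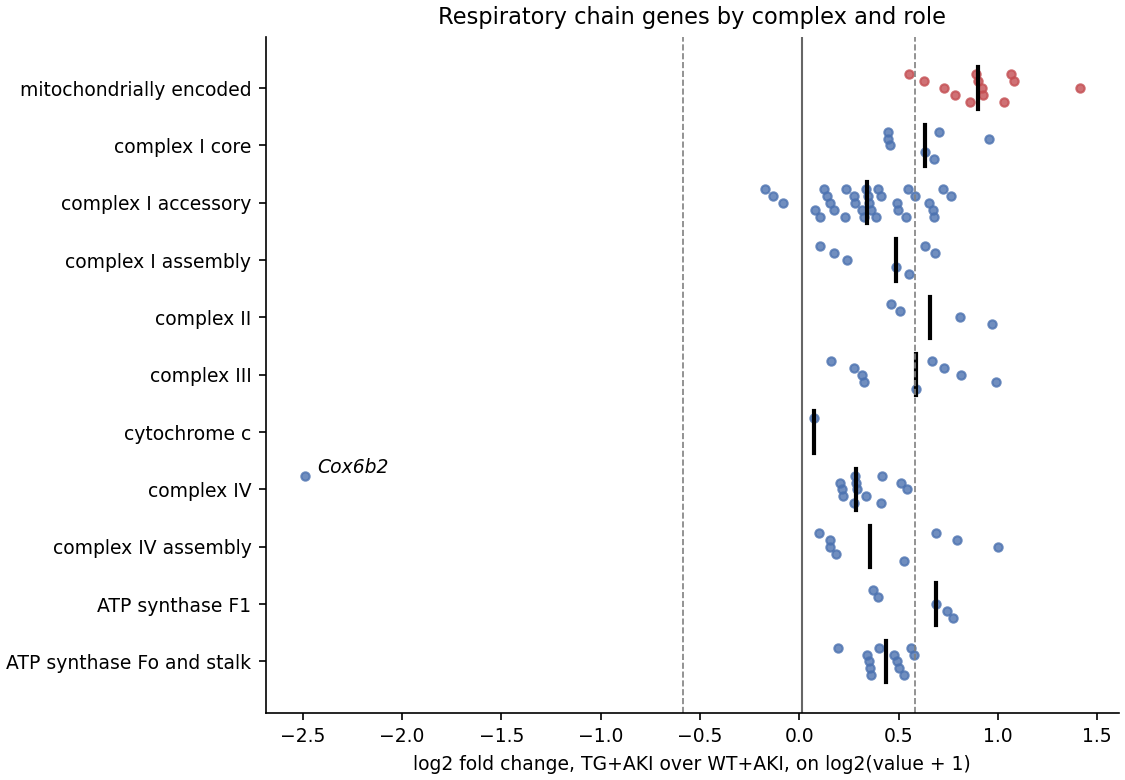
Log2 fold change (TG+AKI over WT+AKI, log2(value + 1) scale) of the 111 members that reached a value of 10, 1 point per gene, by complex and role. Black bars are group medians, the grey line is the median of all genes compared (0.014), and dashed lines mark 1.5-fold. Mitochondrially encoded members (median 0.90) lie farthest to the right, and *Cox6b2* (−2.49) stands alone on the left.

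Markers of kidney cell types also differed between the libraries. All 6 proximal tubule markers, which include the phosphate transporter gene *Slc34a1* and the megalin gene *Lrp2*, rose, and their summed value was 2290 in WT+AKI against 10992 in TG+AKI. The summed value of the 3 markers of the thick ascending limb, another segment rich in mitochondria, was 1831 and 2978. Not all of them were higher, with ratios of 2.65 for *Slc12a1*, 1.35 for *Umod* and 0.909 [0.776 to 1.06] for *Cldn16*. The 3 distal convoluted tubule markers summed to 106 and 524, of which *Slc12a3* alone held 98.5 and 507. *Cldn16*, *Pvalb* and *Trpm6* did not reach the minimum value. The 3 collecting duct markers summed to 223 and 329. By contrast all 4 macrophage markers fell (summed value 87.4 and 22.7), as did all 3 fibroblast markers (282 and 128). The sums for 3 podocyte markers (331 and 385) and 3 endothelial markers (188 and 206) lay closer together, although the endothelial markers differed in both directions, with ratios of 1.65 for *Kdr* and 0.731 for *Pecam1*. No marker named here was at 0 in either library, and markers of fat and muscle were not analysed here. In whole-kidney RNA, fewer cells of a type and less RNA per cell cannot be told apart, and the part of these differences in the results below was not tested.

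**Figure D2:**
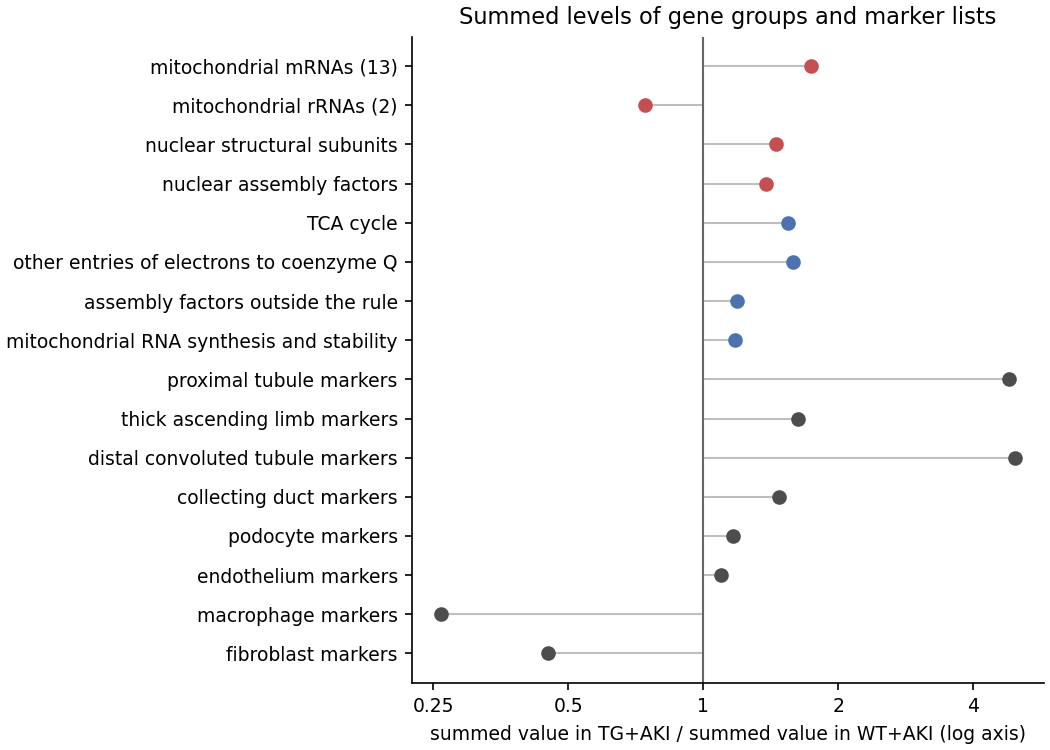
Summed value in TG+AKI divided by summed value in WT+AKI (log axis) for groups of respiratory chain genes (red), related pathway lists (blue) and cell type markers (grey). The 13 mitochondrial mRNAs (1.74) and the nuclear structural subunits (1.45) were higher in TG+AKI by less than the proximal tubule markers (4.80), and the mitochondrial rRNAs (0.743) were lower.

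Mitochondrial DNA encodes 13 proteins, all of them subunits of the chain, and every one of their mRNAs was higher in TG+AKI under each scaling tried. Together they took 13.2% of reads in WT+AKI (95% Clopper-Pearson interval 13.16 to 13.19) and 18.9% in TG+AKI (18.92 to 18.94), and the ratio of their summed values was 1.74. As deposited, 12 of the 13 rose, with a median log2 fold change of 0.90 and ratios from 1.47 to 2.67. With equal totals 9 of the 13 did.

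*COX1*, *COX2* and *COX3* form the catalytic core of complex IV, where oxygen is reduced. *COX1* was the most abundant member in both libraries, by value and per kilobase, with a value of 40348 in WT+AKI against 62271 in TG+AKI. *COX2* had values of 7526 and 12476, and *COX3* had values of 7762 and 14508. All 3 rose, *COX1* least (ratio 1.54 [1.54 to 1.55]) and *COX3* most (1.87 [1.86 to 1.88]). *COX1* made up 33.7% of the summed value of the 13 mRNAs in WT+AKI against 29.9% in TG+AKI, a comparison that no scaling of the libraries can alter.

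*CYTB* encodes cytochrome b, the subunit of complex III that binds coenzyme Q. Its value was 11527 in WT+AKI against 24119 in TG+AKI, a ratio of 2.09 [2.08 to 2.10]. Its share of the 13 mRNAs was 9.62% and 11.6%.

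The 7 mitochondrial subunits of complex I form most of its membrane arm, which moves protons. *ND1*, at the joint with the arm that takes up NADH, had values of 13560 and 19922 and was the one mitochondrial mRNA short of 1.5-fold (ratio 1.47 [1.46 to 1.47]). *ND2* had values of 8538 and 16232, and *ND4*, another of the proton-moving subunits, had values of 7700 and 16316. *ND5*, at the far end of the arm, had values of 9201 and 15841. Of these, *ND4* rose more than 2-fold (2.12 [2.11 to 2.13]), *ND2* rose 1.90-fold and *ND5* 1.72-fold. The short subunit genes had lower values, 1068 and 2184 for *ND4L* and 981 and 2616 for *ND3*. *ND3* had the highest ratio of all 111 members, 2.67 [2.63 to 2.7], and its share of the 13 mRNAs was 0.819% in WT+AKI against 1.26% in TG+AKI. *ND6* is the one protein-coding gene on the other strand of mitochondrial DNA. Its value was the lowest of the 13, 463 and 841, and it rose with a ratio of 1.82 [1.79 to 1.85].

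*ATP6* and *ATP8* encode membrane subunits of ATP synthase, *ATP6* forming the proton channel together with the ring of c subunits. *ATP6* had values of 8406 and 15915 and *ATP8* had values of 2688 and 4976. Both rose, with ratios of 1.89 [1.89 to 1.90] and 1.85 [1.84 to 1.87]. The 2 genes share 43 bases and are read from 1 mRNA, so their rows were not independent measurements. The coding sequence of *ATP8* (GENCODE M21 on GRCm38, chrM:7766-7969, plus strand, 204 bases) is shown with the bases that also belong to *ATP6*, beginning with the start codon of *ATP6*, in capitals.
ATP8: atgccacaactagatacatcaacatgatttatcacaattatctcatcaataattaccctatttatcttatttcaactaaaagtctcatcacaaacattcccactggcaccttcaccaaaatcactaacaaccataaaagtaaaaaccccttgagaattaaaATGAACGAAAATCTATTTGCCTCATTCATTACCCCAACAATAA

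Other neighbours overlap as well, by 7 bases for *ND4L* and *ND4*, 1 base for *ATP6* and *COX3*, and 14 bases for *ND5* and *ND6* on opposite strands. Of the words of 100 bases in the transcripts of *COX2*, *ATP6*, *COX3*, *ND3* and *ND4L*, 97.6% (*ND3*) to 99.9% (*COX3*) also occur in annotated pseudogenes of chromosome 1 that copy mitochondrial DNA, and those copies were not analysed here. The share of words found in any other annotated gene, on whichever chromosome, was 60.8% for *ND4*, 30.8% for *COX1* and 3.19% for *ND2*. For *ND1*, *ND5*, *ND6*, *CYTB* and *ATP8* no word was shared. Values of the genes with large shares are less certain, and with them the rank and share of *COX1* and the ratio of *ND3*.

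**Figure D3:**
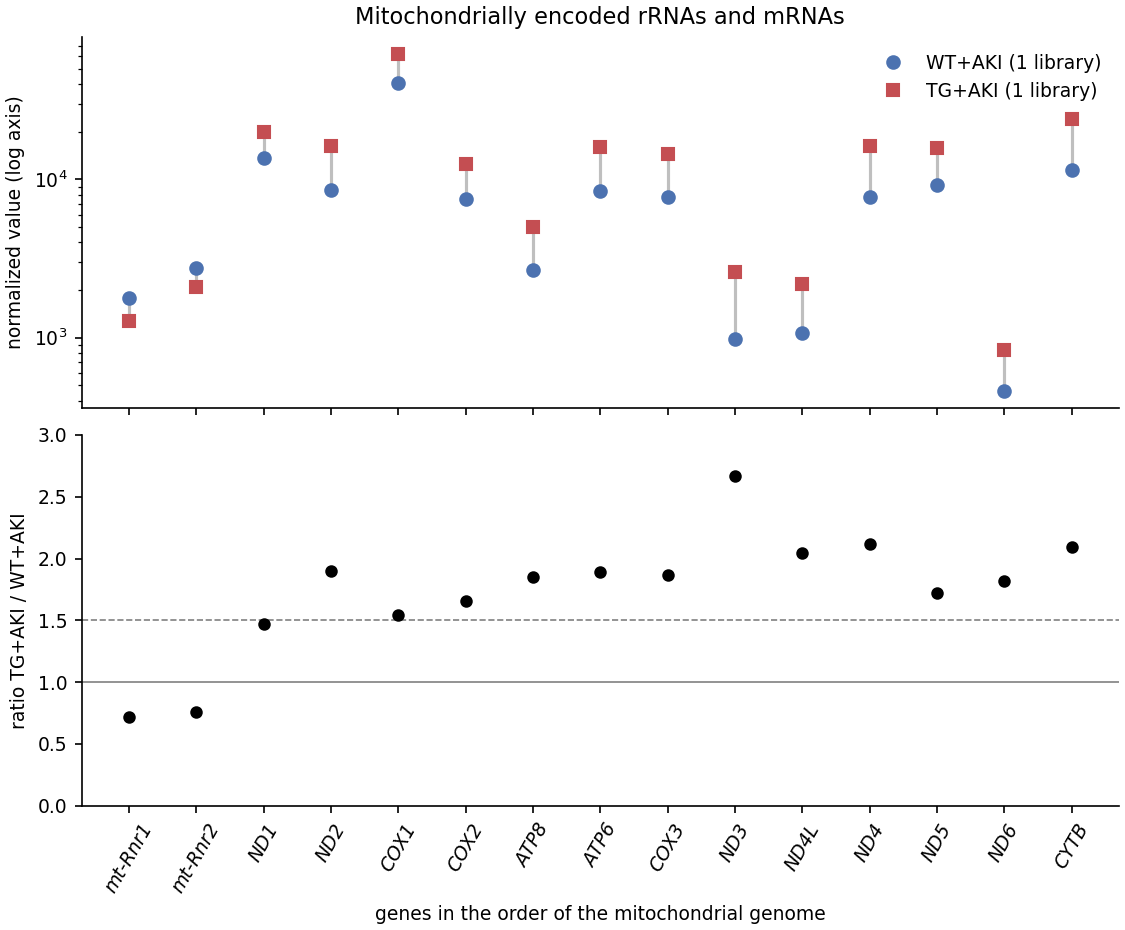
Mitochondrially encoded rRNAs and mRNAs in the order of the mitochondrial genome. Upper panel, normalized value (log axis) in the WT+AKI (blue) and TG+AKI (red) library. Lower panel, ratio of TG+AKI to WT+AKI with 95% intervals that are narrower than the points, a solid line at 1 and a dashed line at 1.5. The 2 rRNAs (0.720 and 0.757) lie under 1, and the mRNAs lie between 1.47 (*ND1*) and 2.67 (*ND3*).

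The mitochondrial ribosomal RNAs, which are no members but are cut from the same long transcript as most of the mRNAs, went the other way. *mt-Rnr1*, the RNA of the small ribosomal subunit, had values of 1774 and 1278 (ratio 0.720 [0.712 to 0.729]). *mt-Rnr2*, the RNA of the large subunit, had values of 2775 and 2101 (0.757 [0.75 to 0.764]). Both were lower in TG+AKI under each scaling tried. The summed value of the 13 mRNAs was 26.3 times that of the 2 rRNAs in WT+AKI against 61.6 times in TG+AKI. The libraries were made from polyadenylated RNA, so the level of rRNA in the tissue was not measured. The rows of mitochondrial transfer RNAs, which lie between the coding genes, were higher in TG+AKI for 20 of 22 as deposited and for 19 of 22 with equal totals. These rows held few reads (0.0333% and 0.0506% of each library). The 8 tRNA genes on the strand that carries *ND6* were all higher as deposited, with a summed value of 232 and 410, of which *TrnS1* alone held 138 and 219. *TrnS1* overlaps the end of *COX1* by 3 bases on the opposite strand. Whether the counting used strand was not given in the sources used here, so for *ND6* and these tRNAs reads from the 2 strands cannot be told apart.

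Per kilobase of transcript, mitochondrial mRNAs stood far above nuclear ones. For complex I the median mitochondrial value per kilobase was 55.9 times the median of the nuclear structural subunits in WT+AKI against 73.5 times in TG+AKI. For complex III the factor was 63.7 and 70.5, for complex IV 32.3 and 43.0, and for complex V 63.1 and 92.4. The size of these factors depended on the transcript used for length. With the shortest principal transcripts, chosen after seeing the data, they were 49.2 and 68.7 for complex I and 48.9 and 67.9 for complex III. For complex IV they were 32.3 and 43.0, and for complex V 48.3 and 71.4. The imbalance between the genomes was therefore wider in TG+AKI for each of the 4 complexes, and it does not depend on the scaling of the libraries. Summed without regard to length, the 13 mitochondrial mRNAs held 8.47 times the value of the nuclear structural subunits in WT+AKI against 10.1 times in TG+AKI.

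The nuclear structural subunits differed less. Of the 82 that reached the minimum value, 19 rose (3 with equal totals), 1 fell and 62 passed neither limit, with a median log2 fold change of 0.40. Those that rose were 23.2% as deposited, beside 14% of all genes compared. With equal totals 7.98% of all genes rose, a larger share than 3 of 82. The same shares of all genes, 14% and 7.98%, stand beside the counts of groups and lists below. As deposited 78 of the 82 were above 0, and 65 were with equal totals. The highest was 0.99 (*Cyc1*), so that no nuclear structural subunit rose 2-fold.

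Complex I has 7 nuclear core subunits, among them those that carry the flavin and the iron-sulfur clusters, and a shell of accessory subunits. All 7 core subunits were above 0 under each scaling tried, with a median log2 fold change of 0.63, and 4 rose (1 with equal totals). *Ndufs1*, the large iron-sulfur subunit of the NADH-oxidizing arm, had values of 162.6 and 316.5 and the highest ratio among them (1.95 [1.89 to 2.01]). *Ndufv1*, which binds NADH and flavin, had values of 165.4 and 225.8 and the lowest log2 fold change, 0.45 (ratio 1.37 [1.32 to 1.41]). *Ndufs7* and *Ndufs8*, which carry the last iron-sulfur clusters before coenzyme Q, rose 1.56-fold and 1.64-fold.

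The 32 accessory subunits of complex I, which stabilize the enzyme, had a lower median of 0.34, and 5 rose (0 with equal totals). As deposited that was 15.6% of the group, close to the 14% of all genes compared. As deposited 29 of the 32 were above 0, and 21 were with equal totals. *Ndufv3* had the highest log2 fold change of the group (values 62.7 and 107, ratio 1.71 [1.63 to 1.80]). *Ndufa1*, *Ndufa9*, *Ndufa10* and *Ndufc2* were the others that rose. *Ndufb9* had the highest value, 175.3 and 224.0 (1.28 [1.24 to 1.32]), and did not pass the limit. At the lower end, *Ndufb6* had values of 95.5 and 84.6, a ratio of 0.886 [0.844 to 0.930], and *Ndufb3* had values of 91.0 and 83.0. Both intervals lay under 1, yet the differences were small beside 1.5-fold. *Ndufb4*, *Ndufb4b* and *Ndufb4c* are near-copies of one another, and all of the words of the *Ndufb4c* transcript occur in *Ndufb4*, so their separate values are uncertain. The summed value of the core subunits was 0.358 times that of the accessory subunits in WT+AKI against 0.433 times in TG+AKI.

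Complex II, succinate dehydrogenase, is also an enzyme of the tricarboxylic acid (TCA) cycle. Its 4 subunits were above 0 under each scaling tried, with a median of 0.66. *Sdhb*, the iron-sulfur subunit, had values of 153.5 and 301.7 and rose 1.97-fold [1.91 to 2.03]. *Sdha*, the flavoprotein that oxidizes succinate and the most abundant of the 4 by value, had values of 469.6 and 824.6 and rose 1.76-fold [1.72 to 1.79]. The membrane anchors had lower ratios and passed no limit, 1.38 [1.34 to 1.42] for *Sdhd* (180.7 and 249.5) and 1.43 for *Sdhc* (194.0 and 276.7). As deposited the 2 catalytic subunits thus rose and the 2 anchors did not reach 1.5-fold, whereas with equal totals 1 of the 4 rose.

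Complex III had 9 nuclear members, all above 0 as deposited and 8 with equal totals, with a median of 0.59, and 5 rose (1 with equal totals). *Cyc1*, or cytochrome c1, the heme protein that meets cytochrome c, had values of 240.6 and 479.2, the highest ratio among nuclear structural subunits (1.99 [1.94 to 2.04]). *Uqcrc2*, a large core protein on the matrix side and the subunit with the highest value, had values of 273.2 and 481.9 (1.76 [1.72 to 1.81]). The Rieske iron-sulfur protein gene *Uqcrfs1* and the other core protein gene *Uqcrc1* also rose, 1.66-fold and 1.59-fold, as did the small subunit gene *Uqcr11* (1.51 [1.44 to 1.57]). *Uqcr10*, another small subunit, had the lowest ratio, 1.12 [1.07 to 1.17] with values of 116.0 and 129.9, and its log2 fold change of 0.16 turned negative with equal totals (−0.11) and with totals equal outside mitochondrial DNA (−0.016).

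Cytochrome c, which carries electrons from complex III to complex IV, did not follow its partners. *Cycs* had values of 289.2 and 305.0 (ratio 1.05 [1.03 to 1.08]), and its log2 fold change of 0.076 turned negative under 3 of the 4 other scalings (−0.20 with equal totals). Of the words of its transcript 24.7% are shared with other annotated genes, so its value is less certain than those of *Cyc1* and *Uqcrc2*, which share none.

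The nuclear subunits of complex IV surround the mitochondrial core. None of the 13 that reached the minimum value rose, 12 were above 0 as deposited and 9 with equal totals, and the median of 0.29 was the lowest of the groups with more than 1 gene. *Cox4i1*, the regulatory subunit that binds ATP, had the highest value and the highest ratio of the group, with values of 353.4 and 515.6 (1.46 [1.43 to 1.49]). *Cox6c* had values of 288.0 and 411.2 (1.43). *Cox7c* had the lowest ratio above 1 (202.9 and 234.3, 1.15 [1.12 to 1.19]), with 44.4% of its words shared with pseudogenes. *Cox8a* had values of 278 and 337 (1.21) and *Cox7b* had values of 229.5 and 305.5 (1.33). *Ndufa4*, first assigned to complex I and now counted with complex IV, had values of 343.7 and 419.8 (1.22). The summed value of complex III was 0.588 times that of complex IV in WT+AKI against 0.715 times in TG+AKI.

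Several complex IV subunits exist as isoform pairs, a common form and a form known from heart, skeletal muscle, testis or lung. *Cox6b2* (chr7:4751792-4753094 on GRCm38.p6, minus strand), known as the testis form of the subunit that faces the space between the membranes, was the one member that fell. It had 1411 reads and a value of 33.3 in WT+AKI and 169 reads and a value of 5.10 in TG+AKI. The log2 fold change was −2.49 and the ratio 0.153 [0.130 to 0.180]. Its common partner *Cox6b1* had values of 210.5 and 265.8 (1.26 [1.23 to 1.30]). Per kilobase, *Cox6b2* made up 14.3% of the pair in WT+AKI against 1.99% in TG+AKI. With the shortest principal transcripts these shares were 17.4% and 2.49%. No word of 100 bases in *Cox6b2* was shared with another annotated gene. Genes on either side of it on chromosome 7 differed in both directions, with values of 28.5 and 50.1 for *Kmt5c* and of 1.44 and 0.181 (61 and 6 reads) for *Il11*.

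The other isoforms were at low levels. *Cox7a1*, the heart and muscle form, had 150 reads and 228 reads (values 3.54 and 6.88, ratio 1.95 [1.58 to 2.41]), beside values of 168.2 and 204.7 for *Cox7a2*. *Cox6a2*, another muscle form, had 12 and 47 reads (values 0.283 and 1.42, ratio 5.01 [2.62 to 10.4]), beside 241.8 and 280.8 for *Cox6a1*, whose log2 fold change of 0.21 turned negative with equal totals (−0.059). Both muscle forms were small parts of their pairs per kilobase, at most 5.34% for *Cox7a1* and 0.423% for *Cox6a2*, both in TG+AKI. *Cox4i2*, the lung form that replaces *Cox4i1*, had 16 and 12 reads (ratio 0.960 [0.415 to 2.16]). *Ndufa4l2*, which is induced by hypoxia and replaces *Ndufa4*, had 134 and 81 reads (values 3.16 and 2.45, ratio 0.774 [0.580 to 1.03]). As deposited, no difference was detectable at this depth for these 2 isoforms. With equal totals TG+AKI values are multiplied by 0.826, which takes the whole interval of *Ndufa4l2* below equality.

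**Figure D4:**
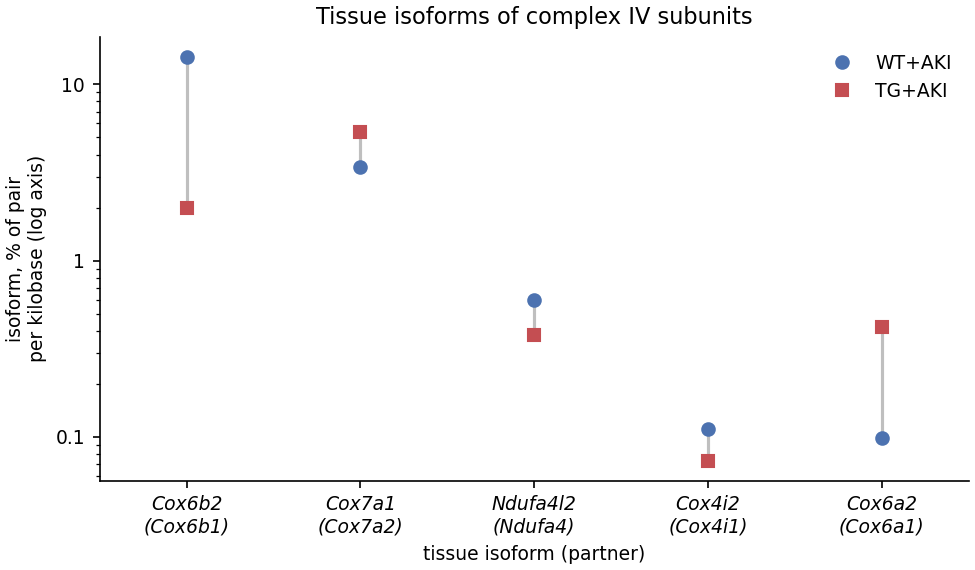
Share of each tissue isoform in the summed level per kilobase of the isoform and its common partner, in percent (log axis). The WT+AKI library is blue, the TG+AKI library is red, and lengths are those of the longest principal transcripts. *Cox6b2* was 14.3% of its pair in WT+AKI against 1.99% in TG+AKI, and the highest share of any other isoform was 5.34% (*Cox7a1* in TG+AKI).

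ATP synthase consists of a catalytic head, F1, on a membrane part, Fo, joined by stalks. The 5 genes of the head had a median of 0.69 and 3 rose (0 with equal totals), and all 5 were above 0 under each scaling tried. *Atp5b*, the catalytic beta subunit and the nuclear member with the highest value, had values of 1599 and 2737 (ratio 1.71 [1.69 to 1.73]). Its partner in the head, the alpha subunit gene *Atp5a1*, rose 1.67-fold (1104 and 1848), and the gamma subunit gene *Atp5c1* of the central stalk rose 1.62-fold. *Atp5d*, the delta subunit of the same stalk, had values of 189.9 and 246.2 and the lowest ratio of the head (1.30 [1.26 to 1.34]).

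None of the 12 genes of the membrane part and the outer stalk passed 1.5-fold as deposited (1 did with DESeq2 size factors), and their median was 0.44. *Atp5g3*, which encodes the c subunit of the rotating ring, had the highest log2 fold change (0.58) with values of 257.4 and 385.0. *Atp5pb*, the outer stalk subunit b and the most abundant of the group by value, had values of 333.4 and 480.9 (1.44 [1.41 to 1.48]). *Atp5mpl*, a small associated protein, had the lowest ratio (105.3 and 120.8, 1.15 [1.10 to 1.20]), and its log2 fold change of 0.20 turned negative with equal totals (−0.076). All 3 *Atp5g* genes encode the same mature c subunit. *Atp5g1* had values of 106.6 and 157.9 and *Atp5g2* had values of 116.4 and 147.6. Of the words of their transcripts 48.1% (*Atp5g1*) and 86.4% (*Atp5g2*) are shared with other annotated genes, against none for *Atp5g3*, so both values are less certain. The summed value of the head was 1.65 times that of the other subunits in WT+AKI against 2.002 times in TG+AKI.

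Assembly factors were above 0 in 15 of 15 cases as deposited and in 8 of 15 with equal totals, with a median of 0.49, and 5 rose (1 with equal totals). For complex I, *Ndufaf1* had the highest log2 fold change (values 17.7 and 29.1, ratio 1.64 [1.49 to 1.81]). *Ndufaf4* had the highest value, 40.4 and 59.8 (1.48 [1.39 to 1.58]), and passed no limit. *Ndufaf2* had values of 11.9 and 12.9, and its log2 fold change of 0.11 turned negative with equal totals (−0.15). Among those of complex IV, *Cox20*, which guides the new COX2 protein, had values of 7.78 and 16.5 (330 and 548 reads, ratio 2.13 [1.85 to 2.44]), and its exons overlap those of *Hnrnpu* on the other strand. *Cox15*, which makes heme A for complex IV, had values of 48.5 and 84.8 (1.75 [1.65 to 1.85]). *Cox17*, a copper carrier, had values of 34.6 and 37.2 (1.07 [0.994 to 1.16]), and its log2 fold change of 0.099 turned negative with equal totals (−0.17). *Cox16* also rose (ratio 1.64), although 88.3% of its words are shared with a read-through gene that spans it.

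Longer subunit transcripts had higher log2 fold changes. Across the 81 nuclear structural subunits with an annotated transcript, Spearman's rho between length and log2 fold change was 0.44 (Pearson's r with log2 length 0.31, and 0.39 without *Cox6b2*). Across 9847 other protein-coding genes rho was −0.027. Among subunits with transcripts of 500 to 1000 bases, 2 of 42 rose and the median was 0.34, whereas 11 of 25 with 1000 to 2000 bases and 4 of 8 with 2000 bases or more rose, with medians of 0.53 and 0.59. The 6 subunits under 500 bases had a median of 0.44 and 2 rose (15 subunits, 0.35 and 2 with the shortest principal transcripts). The other protein-coding genes had medians of −0.30 under 500 bases (28 genes), 0.024 from 500 to 1000 bases (446 genes), 0.052 from 1000 to 2000 bases and −0.0041 from 2000 bases. Those with a value of at least 50 in both libraries, the level of most subunits, had medians of −0.58 (11 genes), −0.098 (137 genes), 0.10 and 0.081 in the same bins, so among them too the bins under 1000 bases lay lower. GC content bore little relation to log2 fold change in the subunits (rho −0.060). These correlations run across genes of 2 libraries, which are not independent replicates, and large catalytic subunits need long transcripts, so length and role cannot be told apart.

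**Figure D5:**
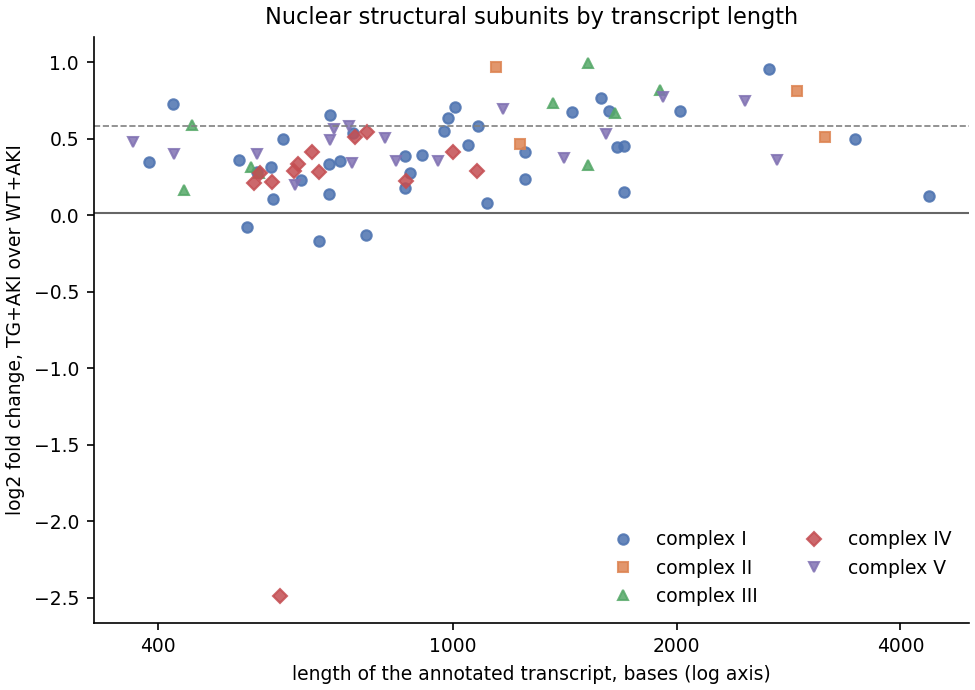
Log2 fold change (TG+AKI over WT+AKI) of 81 nuclear structural subunits against the length of the annotated transcript (log axis), 1 point per gene, with a marker and colour for each complex. The solid line is the median of all genes compared and the dashed line is 1.5-fold. Most subunits over the dashed line have transcripts of 1000 bases or more, and *Cox6b2* is the low point.

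The promoters of nuclear respiratory genes are known to hold sites for the factors NRF1, YY1, GABP of the ETS family, and ESRRA. Windows of 250 bases before to 50 after the start were given for 84 nuclear members (90 windows) in RefSeq on GRCm38.p6, and each was searched on both strands for GCGCATGCG (NRF1), AAGATGGCG (YY1), CCGGAAG (ETS) and TCAAGGTCA (ESRRA). No motif of this set contains another, and the NRF1 letters overlap their own reverse complement. NRF1 letters were in 12.2% of member windows, against 1.75% of all 32851 windows and 3.47% of the windows of genes compared here. For YY1 the shares were 10%, 1.40% and 3.14%, for ETS 27.8%, 8.86% and 17.8%, and for ESRRA 2.22%, 0.423% and 0.238%. The members thus carried each set of letters in a larger share of windows, which is a description. The members were chosen by name, while the genes compared were chosen by their values.

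The windows of members that rose were then set beside those of the other members. Of 20 windows of members that rose, 40.0% held ETS letters, against 24.3% of 70 windows of the others. For NRF1 the shares were 10% and 12.9%, and for YY1 10% and 10%. ESRRA letters were in 2 windows, *Atp5g3* and *Sdhd*, neither of them a member that rose. These are shares of few windows and were not tested. Windows of 4 members that rose, 1 with YY1, 1 with NRF1 and 2 with ETS letters, are shown from 5′ to 3′ with the letters found in capitals, followed by the windows of *Cox6b1*, which holds ETS letters on the other strand, and *Cox6b2*, which holds none of the 4. The positions are chr4:140961021-140961320 (plus strand) for *Sdhb*, chr19:43752951-43753250 (minus) for *Cox15*, chr9:108936398-108936697 (plus) for *Uqcrc1*, chr10:80249199-80249498 (plus) for *Ndufs7*, chr7:30626065-30626364 (minus) for *Cox6b1* and chr7:4753045-4753344 (minus) for *Cox6b2*.
Sdhb: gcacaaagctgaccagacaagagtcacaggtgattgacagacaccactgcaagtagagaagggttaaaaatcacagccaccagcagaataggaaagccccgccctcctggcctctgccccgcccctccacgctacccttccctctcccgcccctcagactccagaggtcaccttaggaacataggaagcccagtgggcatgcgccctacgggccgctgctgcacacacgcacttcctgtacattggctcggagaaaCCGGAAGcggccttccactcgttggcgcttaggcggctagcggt
Cox15: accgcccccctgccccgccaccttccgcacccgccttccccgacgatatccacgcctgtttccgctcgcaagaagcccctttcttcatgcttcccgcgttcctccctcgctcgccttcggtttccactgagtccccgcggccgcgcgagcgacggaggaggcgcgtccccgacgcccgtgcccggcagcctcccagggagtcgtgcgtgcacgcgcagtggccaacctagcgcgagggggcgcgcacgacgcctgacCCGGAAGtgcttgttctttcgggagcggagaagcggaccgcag
Uqcrc1: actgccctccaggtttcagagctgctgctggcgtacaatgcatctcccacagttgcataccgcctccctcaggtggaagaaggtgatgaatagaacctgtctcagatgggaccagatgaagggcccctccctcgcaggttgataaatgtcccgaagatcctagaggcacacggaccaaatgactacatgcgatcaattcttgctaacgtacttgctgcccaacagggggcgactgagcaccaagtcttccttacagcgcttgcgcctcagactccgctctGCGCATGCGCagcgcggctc
Ndufs7: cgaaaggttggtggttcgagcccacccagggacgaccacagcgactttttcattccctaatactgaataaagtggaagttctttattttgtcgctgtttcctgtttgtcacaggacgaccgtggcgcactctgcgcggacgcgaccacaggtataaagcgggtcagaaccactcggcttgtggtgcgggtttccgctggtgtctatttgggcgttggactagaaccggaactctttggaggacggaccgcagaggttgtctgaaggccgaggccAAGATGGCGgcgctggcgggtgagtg
Cox6b1: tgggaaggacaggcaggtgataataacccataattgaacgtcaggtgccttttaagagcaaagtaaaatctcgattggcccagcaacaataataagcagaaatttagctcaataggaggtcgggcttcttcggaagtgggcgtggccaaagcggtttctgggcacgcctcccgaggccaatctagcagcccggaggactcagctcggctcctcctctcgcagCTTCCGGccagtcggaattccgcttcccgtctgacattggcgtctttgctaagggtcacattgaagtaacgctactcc
Cox6b2: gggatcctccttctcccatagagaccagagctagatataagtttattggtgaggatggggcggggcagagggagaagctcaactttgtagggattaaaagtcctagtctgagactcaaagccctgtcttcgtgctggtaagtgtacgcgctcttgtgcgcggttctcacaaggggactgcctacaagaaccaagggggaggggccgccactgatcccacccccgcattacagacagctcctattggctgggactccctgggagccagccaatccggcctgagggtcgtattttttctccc

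In *Sdhb* and *Cox15* the ETS letters begin at bases 257 and 258 of the window, past the 250 bases that precede the start. In *Uqcrc1* the NRF1 letters overlap on both strands, from bases 281 and 282, and in *Ndufs7* the YY1 letters begin at base 275. Ratios of these genes were 1.97 (*Sdhb*), 1.75 (*Cox15*), 1.59 (*Uqcrc1*), 1.56 (*Ndufs7*), 1.26 (*Cox6b1*) and 0.153 (*Cox6b2*).

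Genes that feed the chain were followed in lists outside the rule. All 13 TCA cycle genes listed were above 0 as deposited (11 with equal totals) and 8 rose (1 with equal totals), with a median of 0.62. *Suclg2*, a subunit of succinyl-CoA ligase, which makes the succinate for complex II, rose most (258 and 493, ratio 1.91 [1.86 to 1.96]). *Cs*, the citrate synthase gene, had values of 241.8 and 278.8 (1.15). Of 8 genes that pass electrons to coenzyme Q by other routes, 3 rose (1 with equal totals) and 1 fell. *Prodh*, which oxidizes proline, had values of 117.6 and 356.9 and rose 3.03-fold [2.94 to 3.14]. *Gpd2*, of the glycerol phosphate shuttle, had values of 76.6 and 47.6 and fell to a ratio of 0.622 [0.585 to 0.661]. *Etfa* and *Chdh* were the others that rose.

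Genes for the synthesis and stability of mitochondrial RNA, breakdown enzymes included, had a lower median than the nuclear structural subunits. Of 15 that reached the minimum value, 1 rose (0 with equal totals), *Tefm*, the elongation factor of mitochondrial transcription (10.5 and 16.4, ratio 1.56 [1.38 to 1.77]), and the median was 0.20, with 12 above 0 as deposited and 6 with equal totals. The polymerase gene *Polrmt* had values of 25.6 and 32.8 (1.28), and *Tfam*, which packs and transcribes mitochondrial DNA, had values of 42.2 and 46.7 (1.11). *Lrpprc*, which stabilizes mitochondrial mRNAs, had values of 100.2 and 127.6 (1.27), while its partner *Slirp* had values of 33.7 and 30.3 (0.901). Assembly factors outside the rule had a median of 0.27 over 26 genes, with 6 higher (0 with equal totals) and 0 lower by 1.5-fold and 21 above 0 as deposited (13 with equal totals).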

How the data were processed

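Per the labels, a kit for stranded mRNA libraries (TruSeq) was used. The submitters' processing notes name STAR 2.7.3a, HTSeq, DESeq2, edgeR, Cufflinks 2.2.1 and the mouse build mm10, and the strand setting of the counting and the gene annotation were not given in the sources used here. The authors deposited 1 table of genes (NCBI Gene ID and symbol) whose normalized signal values, 1 column per library, are read counts times a library factor. All values were whole multiples of the smallest value of their column (tolerance 0.01 of a read), so reads were recovered by division. Groups came from the library names. A count test across the groups was not possible with 1 library each, so genes are described by log2 fold changes with a pseudocount of 1, ratios and intervals, and counts past 1.5-fold and 2-fold. A library with 3 reads or fewer was at the floor.

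Members, gene lists and thresholds were chosen with earlier results of these data known. Genes named by rule were all mitochondrially encoded members, the largest and smallest log2 fold change and the highest value in each nuclear group, every member at least 1.5-fold lower, and the tissue isoforms with their partners. Other genes were named after their values were seen. A gene that the rule would name is not reported here. Gene positions and promoters were taken from RefSeq (GRCm38.p6) by gene ID, which held all 125 members, and lengths and shared words of 100 bases from the longest principal GENCODE M21 transcript that was no longer than the RefSeq gene (121 of 125 members). Of the 111 members compared, 23 shared over 10% of their words with other genes, and 36 overlapped exons on the other strand. The procedures were tested on simulated data. Alternatives were pseudocounts of 0.1 and 10, no filter, a filter of 50, and 4 other scalings. Scripts ran under Python 3.11.15 (scipy 1.17.1, numpy 2.4.6, pandas 2.3.3, matplotlib 3.10.9).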

Additional observations from a re-analysis of the deposited data

How the results depend on the processing

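Scaling moved the results most. The mitochondrial median of 0.90 became 0.63 with equal totals, 0.72 with totals equal outside mitochondrial DNA, 0.76 with a median ratio of 1 over well-expressed genes and 0.92 with DESeq2 size factors. The median of nuclear structural subunits, 0.40, became 0.13, 0.22 and 0.26 under the first 3 of these. The 36 members at least 1.5-fold higher became 13, 19 and 21, and the 4 at least 2-fold higher became 1, 1 and 1. These scalings shifted the median of all genes by −0.26, −0.17 and −0.14. The 19 structural subunits at least 1.5-fold higher became 3, 7 and 9 of 82, beside 7.98%, 9.69% and 10.3% of all genes. With a filter of 50, 0 members fell, since *Cox6b2* was then not compared. Among the 49 genes that the naming rule gave, 43 had 1 direction in all 4 scalings and both pseudocounts. Log2 fold changes turned negative for *Atp5mpl* (−0.076) and *Cox6a1* (−0.059) with equal totals, and for *Cox17* (−0.17, −0.075 and −0.042), *Cycs* (−0.20, −0.10 and −0.068) and *Ndufaf2* (−0.15, −0.060 and −0.028) under the 3 scalings in the order above. *Uqcr10* became −0.11 and −0.016 under the first 2. None of the 9 medians of nuclear groups reversed (0.014 to 0.71 under the scalings and pseudocounts). With the shortest principal transcripts, an alternative chosen after seeing the data, Spearman's rho of length and log2 fold change in the subunits was 0.49 in place of 0.44.

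No paired analysis was possible because each group held 1 library. Leaving out a library was likewise not possible. Depth limited the rows with few reads, such as *Cox4i2* and the pseudogenes, and the spread between mice was not measured.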
